A study of Mus musculus with 12 samples.

Results

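B4 and ID elements are short interspersed elements (SINEs) of rodents, and their RNA was followed in mouse embryos at the 2-cell stage. They were taken as every repeat name that the deposited tables place in the SINE class and in the B4 or the ID family. These were 8 of the 18538 names listed, 4 in each family. The B4 family held ID_B1, RSINE1, B4A and B4, and the ID family held ID4, ID4_, ID and ID2. All 8 were counted in every library and passed the filter on low counts. The embryos called KO came from Kdm4a knockout oocytes and carried neither a maternal nor a paternal working allele of Kdm4a, which encodes a histone demethylase acting on methylated lysines of histone H3. The embryos called WT came from wild-type oocytes and carried the maternal allele only, since knockout sperm were used for both groups. All embryos were of the C57BL/6 strain, 1.5 days after fertilization, with 6 libraries of total RNA per group. The contrast is of the maternal allele together with what the oocyte had stored, and any other difference between the females cannot be told apart from it. Embryos were put in individual tubes, but the labels do not give the number of embryos per library or of females, so p-values measure the spread between these libraries.

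SINEs are short retrotransposons that code for no protein and rely on the enzymes of LINE-1 elements to be copied. ID elements descend from an alanine transfer RNA, and the Bc1 gene, which gives a small cytoplasmic RNA known from neurons, is the source from which copies spread in rodents. B4 elements are fusions of an ID-like part and a part akin to B1, the rodent relative of primate Alu. SINEs of both kinds carry the internal promoter of RNA polymerase III, of which the A box is one part. Many copies lie inside introns and untranslated ends of genes, so a read on a SINE name can come from a longer transcript made by RNA polymerase II as well as from a SINE's own transcript. The counts do not separate these, and they are not resolved by copy.

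The start of the Bc1 RNA is shown because it carries the head shared by ID elements, with 2 genomic sequences that resemble it. All are from RefSeq on GRCm38.p6 and run 5′ to 3′. In Bc1, which begins at chr7:144914470-144914519 on the plus strand, capitals mark the A box, and in the other lines they mark bases that differ from Bc1.
Bc1: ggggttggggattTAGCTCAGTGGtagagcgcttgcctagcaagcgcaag
Gm42324 upstream: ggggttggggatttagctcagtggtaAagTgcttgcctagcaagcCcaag
Gm11961 upstream: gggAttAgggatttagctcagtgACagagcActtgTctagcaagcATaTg
The A box lies at bases 14 to 24 of Bc1. With N for its variable bases it was searched as TAGCNNAGTGG on both strands of 32851 windows that run from 250 bases before to 50 bases after gene starts, and 0.265% of them held it. Outside Bc1's own window, 2 stretches in these windows had at most 10 mismatches over the 50 bases. The closer match, with 3 mismatches, lies at chr4:133596072-133596121 on the minus strand, 65 to 114 bases before the start of Gm42324 and on the same strand as that gene. The other, with 9 mismatches, lies at chr11:4627813-4627862 on the plus strand, 47 to 96 bases before the start of Gm11961 and on the opposite strand. The tables name no copy, so whether reads came from these places is not known.

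The libraries held 7952526 to 16493286 counts in KO and 10946392 to 18902360 in WT, all on repeat names, so the level of Kdm4a itself was not measured here. MERVL-int, a retrovirus-like element known for its transcription at the 2-cell stage, was present in every library as a check of the stage. Its mean was 32176 ± 8631 normalised CPM in KO and 66061 ± 14862 in WT (SD, n = 6). The mean was thus lower in KO, and whether both groups had reached the same point of the stage was not tested. A further repeat planned for this check, MT2_Mm, is not described here. Normalised CPM are counts scaled to a library size corrected by TMM (trimmed mean of M values), a scaling that sets the typical repeat equal between libraries. LTR retrotransposons took 47.7% ± 2.88 of the counts in KO and 55.9% ± 2.05 in WT (SD, n = 6). Shares are parts of one total, so a lower LTR share goes with a higher share of the other classes summed. In whole embryos, fewer cells with an RNA and less of it per cell cannot be told apart.

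No B4 or ID row passed the test for a difference between the genotypes after correction over all repeats (edgeR quasi-likelihood test with Benjamini-Hochberg adjustment, 0 of 8 called). Over all 3312 tested repeats, 1.42% were called, 0.151% as higher in KO and 1.27% as lower. DESeq2 also called 0 of the 8 (5.11% of all repeats), as did limma-voom with quality weights (2.11%) and edgeR with RLE scaling (1.21%), upper quartile scaling (1.48%) or TMM on rows outside the LTR class (2.08%). At an unadjusted p under 0.05 edgeR found 2 higher, B4 and B4A, and 0 lower, beside 5.50% of all tested repeats found higher and 7.91% found lower at that level. The estimates were small and close together. The 8 log2 fold changes lay between 0.00 and 0.16 with a median of 0.08, beside a median of 0.01 over all repeats. All 8 were positive, as were 1696 of the 3312 repeats tested. The SINE class as a whole, which includes these 8, was alike, with 33 of its 38 rows positive and a median of 0.08. Outside the 8, the positive rows were 13 of 16 in Alu, 5 of 5 in B2, 5 of 5 in MIR and 2 of 4 in the remaining families. Neither the sign nor the size was thus particular to B4 and ID. The 8 rows share libraries and scaling factors and may share reads, so their common sign is a description of these libraries.

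**Figure D1:**
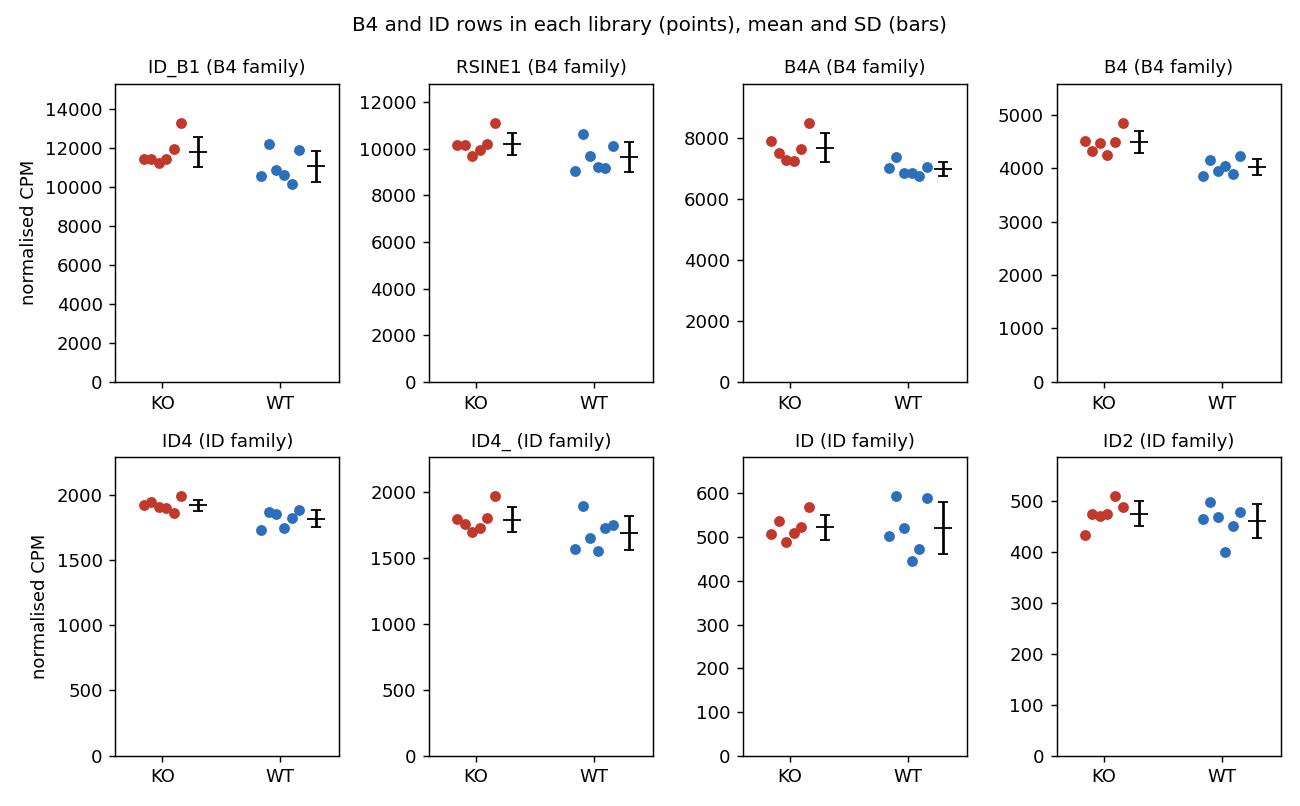
Normalised CPM of each of the 8 rows in each library, with KO in red on the left and WT in blue on the right of every panel. Points are libraries, bars give the mean and SD of 6 libraries, and each axis starts at 0. The B4 row is the only one of the 8 in which all KO points lie above all WT points.

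Within the B4 family, the row B4 showed the widest relative gap. Its lowest, median and highest values were 4247, 4487 and 4855 normalised CPM in KO, and 3851, 3991 and 4226 in WT. The KO libraries thus lay just above the WT libraries without overlap, the lowest KO library exceeding the highest WT library by less than the SD of either group (210 in KO and 149 in WT). Such a separation with KO on top was seen in 0.725% of the tested repeats. The log2 fold change was 0.16 with a standard error of 0.06 and a 95% interval of 0.04 to 0.28, and it did not pass the correction (edgeR adjusted p = 0.186).

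B4A is the closest relative of B4 by name. It ranged from 7218 to 8492 normalised CPM in KO with a median of 7566, and from 6752 to 7354 in WT with a median of 6925. All 6 KO libraries lay above the WT median, and 2 of them below the highest WT library. The KO libraries also all lay above the WT median in ID_B1, RSINE1, ID4 and ID4_, but not in ID2 or ID. Its log2 fold change was 0.14 with a standard error of 0.06 and a 95% interval of 0.01 to 0.26 (edgeR adjusted p = 0.318).

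ID_B1, named for its ID and B1 parts, gave the most reads of the 8 names. Its values ran from 11216 to 13307 normalised CPM in KO with a median of 11432, and from 10174 to 12228 in WT with a median of 10745. The ranges overlapped, though every KO library lay above the WT median. The highest KO value, that of replicate 6, stood apart from the other KO libraries, which reached 11939. The log2 fold change was 0.09 with a 95% interval of -0.06 to 0.24 (edgeR adjusted p = 0.633), and it was 0.06 without KO replicate 6 and 0.06 without WT replicate 5. RSINE1, the remaining name of the family, is placed there by the tables. It lay between 9706 and 11131 normalised CPM in KO with a median of 10159, and between 9041 and 10653 in WT with a median of 9452. Its log2 fold change was 0.08 with a 95% interval of -0.05 to 0.22 (edgeR adjusted p = 0.637).

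The ID family gave far fewer reads. ID4 was its most counted name, with 1864 to 1990 normalised CPM in KO and a median of 1917, and 1732 to 1886 in WT and a median of 1841. The coefficient of variation of ID4 was 2.24% over the KO libraries and 3.62% over the WT libraries, the lowest of the 8 rows in KO. Its log2 fold change was 0.08 with a 95% interval of -0.03 to 0.19 (edgeR adjusted p = 0.563).

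ID4_ lay between 1694 and 1969 normalised CPM in KO with a median of 1777, and between 1556 and 1892 in WT with a median of 1690. The groups overlapped, and the log2 fold change was 0.08 (95% interval -0.06 to 0.22, edgeR adjusted p = 0.655). ID2, the least counted of the 8, had 434 to 509 normalised CPM in KO with a median of 475 and 399 to 498 in WT with a median of 467, and its log2 fold change was 0.05 (95% interval -0.10 to 0.19, edgeR adjusted p = 0.864). That value was 0.07 without KO replicate 1 or without WT replicate 2, 0.03 without KO replicate 5 and 0.01 without WT replicate 4.

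The row named ID was the one with no gap at all. It had 489 to 569 normalised CPM in KO with a median of 517, and 446 to 593 in WT with a median of 512, so the KO range lay wholly inside the WT range. The log2 fold change was 0.00 with a 95% interval of -0.17 to 0.18 (edgeR adjusted p = 0.991). Its sign turned with the choice of scaling.

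Taken as folds, the upper ends of the 8 intervals lay between 1.13 for ID and 1.22 for B4, and the lower ends between 0.890 for ID and 1.03 for B4. These bounds hold for levels relative to the typical repeat. In the order of counts, ID_B1 came first, then RSINE1, B4A, B4, ID4, ID4_, ID and ID2. Each neighbour kept its place in all 12 libraries except ID4 and ID4_, whose order held in 11. The ranges of ID_B1 and RSINE1, of ID4 and ID4_, and of ID and ID2 over the libraries overlapped. These are reads per name and not per length or per copy, so the order is not one of transcription per element.

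**Figure D2:**
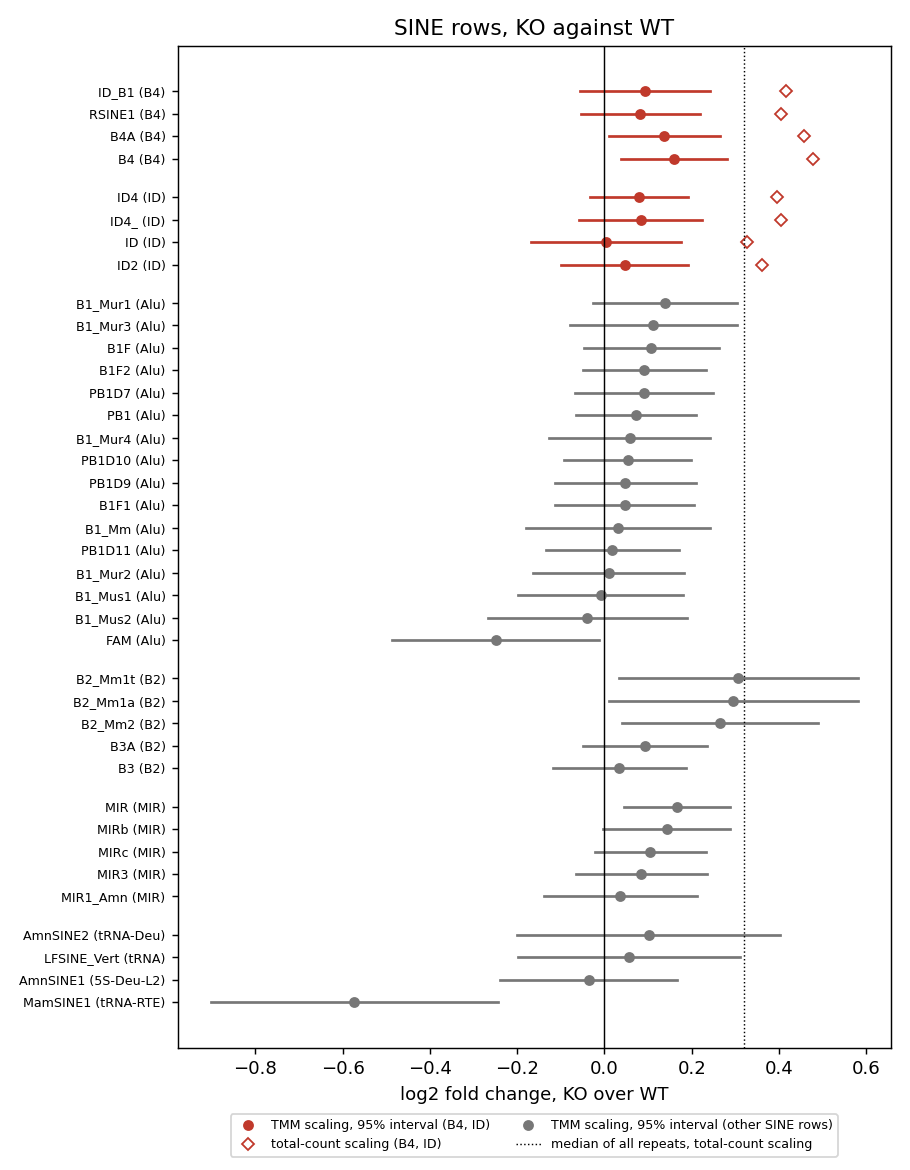
Log2 fold change of KO over WT for the 38 SINE rows (horizontal axis), grouped by family down the page, with B4 and ID in red and other SINE rows in grey. Filled points and lines give the estimate and 95% interval with TMM scaling, open diamonds the estimate of the B4 and ID rows with scaling by total counts, and the dotted line the median of all repeats under that scaling (0.32). The 8 filled points lie from 0.00 to 0.16 and the diamonds from 0.33 to 0.48.

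Scaling by total counts gave another reading. All 8 rows were then called higher in KO, with log2 fold changes from 0.33 for ID to 0.48 for B4 (edgeR adjusted p = 0.0281 for ID and 0.00753 for B4). With that scaling 10.8% of all tested repeats were called higher, and the median repeat moved to 0.32. Relative to that median, the 8 rows lay between 0.01 and 0.16, against -0.01 to 0.15 relative to the median repeat with TMM. With no filter on low counts, 10386 repeats were tested with TMM and their median was 0.17, so that the 8 rows, at 0.02 to 0.17, lay between -0.15 and 0.01 relative to it. Whether they lie above the typical repeat thus depended on whether rare rows were counted in.

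Summed shares of counts, which carry no TMM factor, are given without a test. The B4 family took a lowest, median and highest share of 3.27%, 3.62% and 4.68% of all counts in KO, and 2.64%, 2.88% and 3.02% in WT. The ID family took 0.461%, 0.501% and 0.622% in KO, and 0.372%, 0.396% and 0.438% in WT. In both families every KO library lay above every WT library. Row by row this held for 7 of the 8, all but ID, beside 5.80% of all tested repeats. Such a separation was not particular to these families. The SINE class as a whole took at least 16.8% in KO and at most 15.0% in WT. The Alu family took at least 5.31% in KO and at most 5.27% in WT, and the MIR family at least 0.585% and at most 0.570%. The B2 family overlapped, with 5 KO libraries above every WT library.

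Among the counts outside the LTR class the gap narrowed. The B4 family made up 7.30% ± 0.703 of them in KO and 6.45% ± 0.150 in WT (SD, n = 6), and the lowest KO library, at 6.56%, lay below the highest WT library, at 6.69%. The ID family made up 1.01% ± 0.0766 in KO and 0.915% ± 0.0327 in WT (SD, n = 6), with 4 KO libraries above every WT library.

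Among the counts of the SINE class the groups overlapped. The B4 family held 20.4% ± 0.970 in KO and 20.5% ± 0.700 in WT, and the ID family 2.82% ± 0.124 in KO and 2.91% ± 0.165 in WT (SD, n = 6). Inside the pool of B4 and ID reads the makeup hardly moved either, with the B4 family at 87.9% ± 0.236 in KO and 87.6% ± 0.359 in WT (SD, n = 6), although all 6 KO libraries lay above the WT median.

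**Figure D3:**
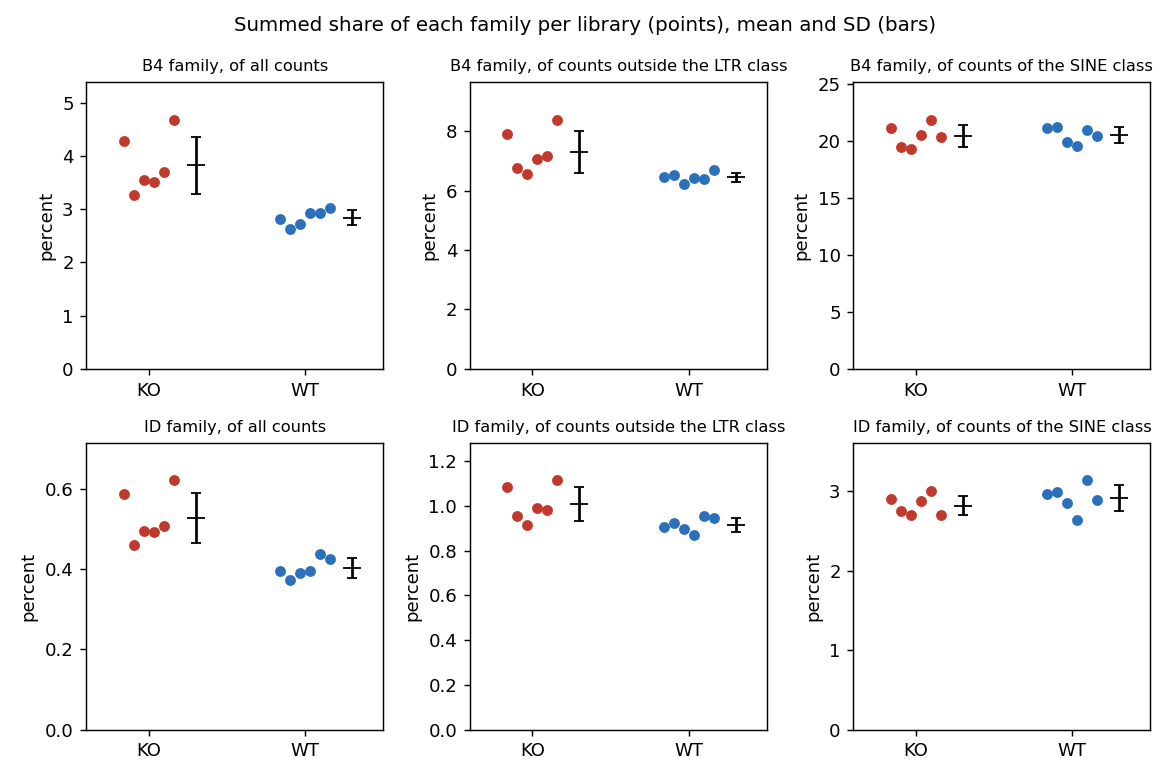
Share of the summed B4 family (upper row) and ID family (lower row) in percent of all counts, of counts outside the LTR class and of counts of the SINE class, per library, with KO in red on the left and WT in blue on the right. Bars give the mean and SD of 6 libraries and every axis starts at 0. The groups are apart in the left panels, overlap slightly in the middle ones and overlap fully on the right.

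Ratios of 2 names within a library need no scaling, and 5 of them were tested by exact permutation over all 924 regroupings (two-sided, adjusted over the 5). Neither of the ratios inside the B4 and ID pool passed the test. The log2 ratio of RSINE1 to ID_B1 was -0.21 ± 0.03 in KO and -0.20 ± 0.03 in WT (SD, n = 6 each, exact permutation p = 0.613, adjusted p = 0.764). That of ID4 to ID_B1 was -2.62 ± 0.08 in KO and -2.60 ± 0.08 in WT (SD, n = 6 each, exact permutation p = 0.764, adjusted p = 0.764). Both differences, -0.01 on the log2 scale, turned sign without KO replicate 6, to 0.000529 for RSINE1 and 0.01 for ID4, and the ID4 one also without WT replicate 5 (0.01).

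Set against the most counted names of other SINE families, ID_B1 showed no difference that passed the correction. Against B1_Mus1 of the Alu family, a young B1 element, its log2 ratio was 0.53 ± 0.11 in KO and 0.42 ± 0.07 in WT, with 4 of 6 KO libraries above the WT median (SD, n = 6 each, exact permutation p = 0.0714, adjusted p = 0.179). Against B3 of the B2 family it was -0.57 ± 0.02 in KO and -0.63 ± 0.07 in WT, with 6 of 6 KO libraries above the WT median (SD, n = 6 each, exact permutation p = 0.0671, adjusted p = 0.179). Without WT replicate 1 that difference passed (0.08, exact permutation adjusted p = 0.0433), while against the whole B2 family its sign turned (-0.10, exact permutation adjusted p = 0.403). Against MIRb, of the ancient MIR family shared by mammals, it was 2.42 ± 0.05 in KO and 2.47 ± 0.07 in WT, with 5 of 6 KO libraries below the WT median (SD, n = 6 each, exact permutation p = 0.193, adjusted p = 0.321).

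**Figure D4:**
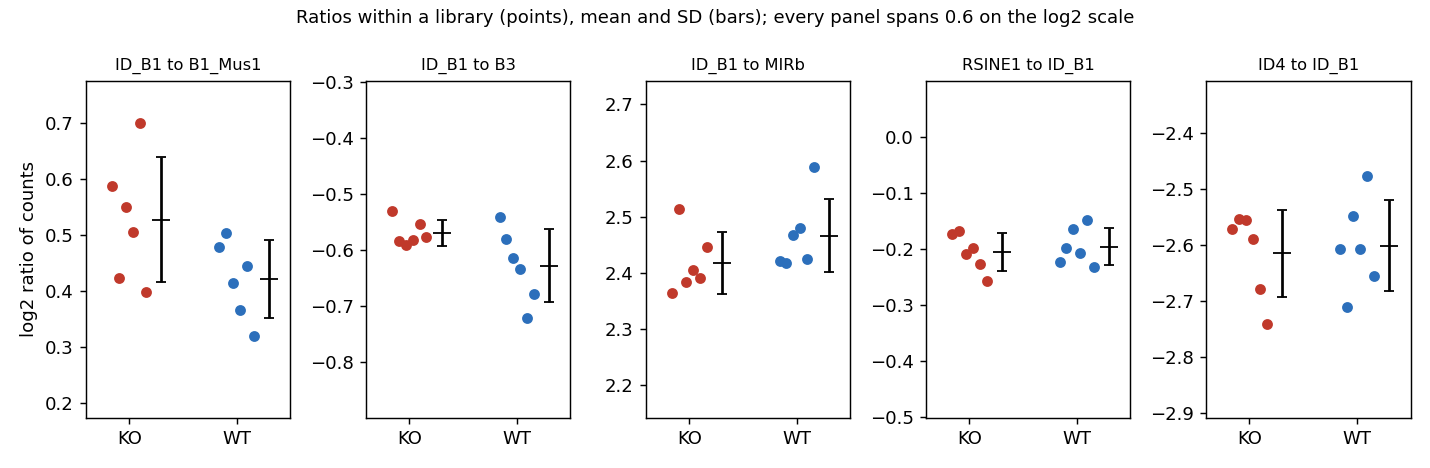
Log2 ratio of the counts of 2 names within each library, with KO in red on the left and WT in blue on the right of each panel, and bars for the mean and SD of 6 libraries. Every vertical axis spans the same range of the log2 scale, so distances can be compared between panels. The groups overlap in all 5 panels.

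None of the following ratios was among the planned ones, and all are given without a test. Those of B4A and B4 to ID_B1 were added after their values were seen. The log2 ratio of B4 to ID_B1 was -1.39 ± 0.05 in KO and -1.46 ± 0.06 in WT (SD, n = 6), with all 6 KO libraries above the WT median. For B4A to ID_B1 it was -0.62 ± 0.04 in KO and -0.66 ± 0.07 in WT (SD, n = 6), with 5 of 6 above. Among the ID names, the ratio of ID to ID4 was -1.88 ± 0.06 in KO and -1.81 ± 0.13 in WT (SD, n = 6), with 5 of 6 KO libraries below the WT median. That of ID2 to ID4 was -2.02 ± 0.09 in KO and -1.98 ± 0.08 in WT (SD, n = 6), also with 5 of 6 below. That of ID4_ to ID4 was -0.10 ± 0.06 in KO and -0.11 ± 0.07 in WT (SD, n = 6), with 3 of 6 below.

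The other SINE families give the setting of these values. The call rate was 0 of 16 rows in Alu, 0 of 5 in B2, 0 of 5 in MIR and 0 of 4 in the remaining families (edgeR, adjusted over all repeats), and at an unadjusted p under 0.05 the rows found were 1 lower in Alu, 3 higher in B2, 1 higher in MIR and 1 lower in the remainder. The median log2 fold change was 0.11 in the B4 family and 0.06 in the ID family, against 0.05 in Alu, 0.27 in B2 and 0.10 in MIR. No test of the difference between families was made beyond the ratios above. MIR, like B4, had all KO libraries above all WT libraries, with 2015 ± 120 normalised CPM in KO and 1796 ± 19.5 in WT (SD, n = 6, log2 fold change 0.17, edgeR adjusted p = 0.167).

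The RNAs from which ID elements arose were listed as names of their own. BC1_Mm, the name for the Bc1 RNA, had 561 ± 48.2 normalised CPM in KO and 557 ± 22.5 in WT (SD, n = 6). Its log2 fold change was 0.01 (95% interval -0.14 to 0.16, edgeR adjusted p = 0.979). Since Bc1 and ID copies share the sequence printed above, reads may be split between these names in a way the sources do not give. Of the 4 alanine transfer RNA names, tRNA-Ala-GCY was too rare to be tested, with 64 counts in all KO libraries and 57 in all WT libraries. The other 3 passed no correction. The largest difference was that of tRNA-Ala-GCG, with 11.4 ± 4.67 normalised CPM in KO and 7.24 ± 2.43 in WT (SD, n = 6, log2 fold change 0.66, edgeR adjusted p = 0.312). KO replicate 6 had 20.6 normalised CPM of it, and the other KO libraries 8.08 to 11.4.

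The 8 rows deviated to the same side in some libraries and not in others. With each genotype's mean taken off, all 8 were above the mean in KO replicate 6 and in WT replicates 2 and 6, and all 8 were below it in KO replicates 3 and 4. In the other 7 libraries the rows were mixed, with 4 above and 4 below in KO replicate 1 and in WT replicate 3, and 1 above and 7 below in WT replicate 4. Over the 12 libraries, Pearson's r of these deviations lay between 0.77 and 0.95 for the 6 pairs inside the B4 family, between 0.41 and 0.77 for the 6 pairs inside the ID family, and between 0.20 and 0.89 for the 16 pairs across them. Among the 252 rows outside both families that averaged 400 normalised CPM or more, the median r over all pairs was 0.15 and the quartiles were -0.15 and 0.45. All pairs share libraries, depth and scaling factors, so these values are descriptive. The pair with the highest r was ID_B1 and RSINE1 (0.95), and the weakest was B4 and ID2 (0.20). The coefficient of variation of the row ID was 5.42% in KO and 11.5% in WT, the highest of the 8 rows in WT.

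**Figure D5:**
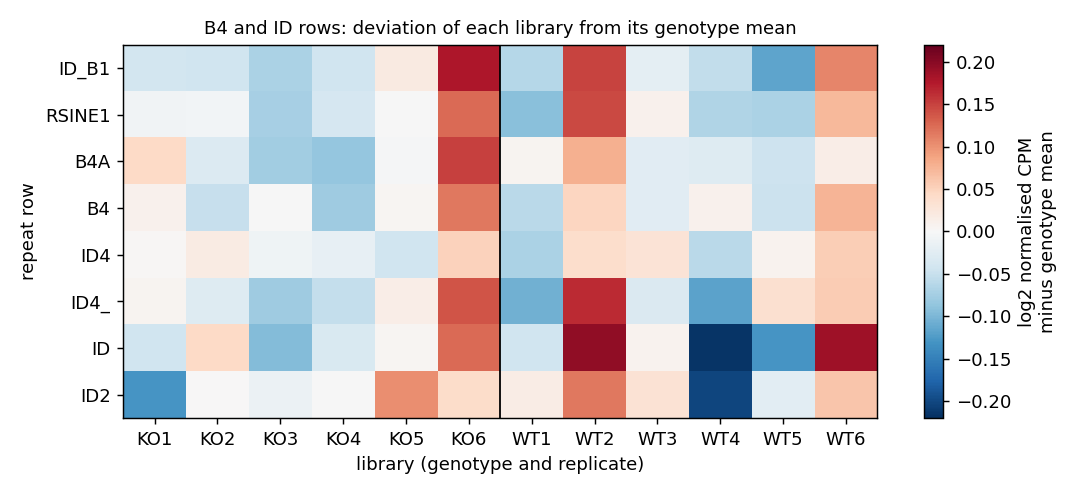
Deviation of each library from the mean of its genotype on the log2 scale of normalised CPM (colour), for the 8 rows down the page and the 12 libraries across, KO left of WT. The columns of KO replicate 6 and WT replicate 2 are red in all 8 rows, and that of KO replicate 3 is blue or nearly white, below the mean in all 8.

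Rows outside both families were ranked by the same r, among the 1437 that averaged 10 normalised CPM or more. The 5 most like ID_B1 were PB1D7 (r = 0.96), B1F2 (0.96), B1_Mur2 (0.95), RLTR11B (0.94) and B1_Mur1 (0.94), of which 4 belong to the Alu family that holds the B1 elements and RLTR11B is an LTR element of the ERVK family. The 5 most like ID4 were MER21B of the ERVL family (0.87), the simple repeat _AATAA_n (0.83), RLTR13C3 of the ERVK family (0.79), the simple repeat _ACAAAA_n (0.78) and PB1D10 of the Alu family (0.78). SINE rows made up 17 of the 30 rows most like ID_B1 and 11 of the 30 most like ID4, though only 30 of the 1437 rows ranked were SINEs. These rows too share libraries, depth and scaling factors, and ID_B1 may share reads with B1 names. The likeness is thus a description, and its cause was not tested.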

How the data were processed

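Total RNA of 12 libraries (6 KO, 6 WT, grouped by title) was made into libraries with a stranded low-input kit that depletes ribosomal RNA, per the labels' protocols. The authors deposited, for each repeat name, estimated counts of reads beside its class and family. All were whole, so rounding changed nothing. The submitters' processing notes name mm10, Trimmomatic 0.32 and edgeR without roles. For the aligner, repeat annotation, counter and use of strand, the sources used here give nothing. Names of like sequence can share reads. The tables are named for unique and fraction counts, without saying how reads that fit several names were split. Replicate numbers are those of the titles, and those in the names of the tables run the other way.

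All repeats were fitted with edgeR 4.0.16 in R 4.3.3 (filterByExpr, TMM, quasi-likelihood F test of genotype, Benjamini-Hochberg over 3312 rows, threshold 0.05), with DESeq2 1.42.0 and limma 3.58.1 as alternatives. Standard errors and 95% intervals come from the F statistic. Ratios used exact permutation tests; the planned ratio of ID_B1 to the most counted B4 name was void, as these are the same name. The rows named are all B4 and ID names, the most counted names of other SINE families used as denominators, BC1 and alanine transfer RNA names, and the 5 rows most like ID_B1 and ID4. MIR was named after its values were seen. Members and lists were chosen with earlier results of these data known. The tests were checked on simulated data. Replicates were compared within groups (30 pairs, chi-square per degree of freedom 25.0 to 143.8), and no pair agreed within sampling noise. Counting error is small at this depth, and reads carry no molecular identifiers, so they are not independent molecules. Correlations of same-numbered libraries ran from -0.07 to 0.15. The highest was that of replicate 1, the only number whose best match was its own. Whether replicate numbers pair the samples was not tested further. Sequences are from RefSeq tables of GRCm38.p6. No consensus of B4 or ID elements was used here.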

Additional observations from a re-analysis of the deposited data

Results flagged for a closer look

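In 30 groups of 6 libraries checked for a single far library, 3 were found, and chance gives about 1 in 20 groups. The groups share libraries and rows and are not independent, so the 2 rates cannot be compared strictly. Of the 3, 2 are the same library in ID_B1 and RSINE1, whose deviations had r = 0.95. KO replicate 6 stood above the other KO libraries in ID_B1, at 13307 normalised CPM against 11216 to 11939, and in RSINE1, at 11131 against 9706 to 10198. The same library had the highest SINE share of all, 23.1% of its counts, and the lowest LTR share, 44.2%, and the part of these in the result was not tested. WT replicate 6 stood above the other WT libraries in the log2 ratio of ID_B1 to MIRb, at 2.59 against 2.42 to 2.48.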

How the results depend on the processing

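The count of B4 and ID rows called was 8 with scaling by total counts and 0 with RLE, upper quartile or non-LTR TMM scaling, DESeq2, limma-voom, robust edgeR, both other filters, simple repeats left out, the replicate block, and without both WT replicate 2 and KO replicate 5, and was 0 to 0 over the removal of each library in turn. Of the single rows, ID turned sign with RLE scaling (-0.00533), DESeq2 (-0.0051) and TMM on rows outside the LTR class (-0.0239), and ran from -0.0355 to 0.0455 without single libraries. There the other rows stayed positive, from 0.06 to 0.12 for ID_B1, 0.06 to 0.11 for RSINE1, 0.11 to 0.16 for B4A, 0.14 to 0.18 for B4, 0.07 to 0.09 for ID4, 0.05 to 0.12 for ID4_ and 0.00939 to 0.0725 for ID2. ID4_ was 0.05 without KO replicate 6. With no filter the median of all repeats was 0.17 and that of the 8 rows relative to it -0.07, against 0.07 with the filter. The count over all repeats, 47, was 390 with total counts, 169 with DESeq2, 18 with no filter, 108 without simple repeats and low-complexity rows, and 23 without both WT replicate 2 and KO replicate 5. Over the removal of single libraries it ran from 19 to 93, and moved by over 1.5 times without KO replicate 1 (28), 2 (93), 3 (30), 5 (31) or 6 (19) and without WT replicate 1 (29), 3 (22) or 6 (19). With the replicate number as a block, 48 repeats and 0 of the 8 rows were called, and it changed no call of the ratios.

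The summed share of the B4 family (log2 of the KO mean over the WT mean, 0.43 of all counts) was 0.18 outside the LTR class and -0.00804 within SINEs, and that of the ID family (0.39) was 0.14 and -0.0475; without single libraries they ran from 0.36 to 0.47 and from 0.33 to 0.42. The KO minus WT log2 ratio of ID_B1 to B3 turned to -0.10 against the summed B2 family, and ran from 0.0401 to 0.0761 without single libraries. Without single libraries the ratio of RSINE1 to ID_B1 ran from -0.0175 to 0.000529, that of ID4 to ID_B1 from -0.0354 to 0.0117, that of ID_B1 to B1_Mus1 from 0.07 to 0.13 and that to MIRb from -0.07 to -0.02. The causes were not tested.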
